A study of Mus musculus with 24 samples.

Results

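The effect of the Q175 allele on striatal RNA in mice with an intact Tyrobp gene was measured in 12 of the 24 libraries of this series, 6 from Q175 heterozygotes and 6 from wild-type (WT) mice, 1 library per animal. Members were chosen by the genotype labels alone. The Q175 allele carries a long CAG tract inserted in the mouse Huntingtin gene (Htt), and its carriers model Huntington's disease. Each group held 3 males and 3 females labelled as C57BL/6, the tissue was the flash-frozen striatum of a single hemisphere, extracted with Trizol, and age was not given. All Q175 animals carried 1 copy of the allele, and both groups kept Tyrobp, which encodes a microglial adaptor protein and was deleted in the other 12 libraries. The animal labels of the 6 Q175 mice and of WT replicate 3 began with Q, and those of the other 5 WT mice began with WT. Any colony difference that this prefix marks cannot be told apart from genotype except through WT replicate 3, whose title joins WT and Q175 and whose genotype label reads WT.

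Most striatal neurons are GABAergic projection neurons. Direct pathway cells carry the dopamine receptor Drd1, and indirect pathway cells carry Drd2 and the peptide precursor Penk. Both kinds depend on cyclic AMP signalling, on glutamate input to dendritic spines and on release of calcium from internal stores, and they are the cells most affected in Huntington's disease. In bulk tissue, fewer cells of a type and less RNA per cell cannot be told apart.

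Total counts per library lay between 25.7 and 32.4 M. Neither the total, nor the share of mitochondrially encoded reads, nor the share of the 10 largest genes differed detectably between the groups (2-sided exact permutation tests over 924 splits, p 0.483, 0.582 and 0.511, adjusted p 0.582 for each over 4 measures). Htt itself ranged from 209 to 233 CPM in WT (median 228) and from 137 to 177.3 CPM in Q175 (median 168), so the groups did not overlap (exact permutation p 0.00216, the smallest that 924 splits can give, adjusted 0.00866), with a log2 fold change of -0.46 ± 0.06 (SE; adjusted p 3.02e-06, edgeR). Tyrobp ranged from 6.56 to 9.89 CPM in WT (median 7.74) and from 5.7 to 11.8 CPM in Q175 (median 9.15), and its log2 fold change was 0.12 ± 0.14 (SE; adjusted p 0.668, edgeR), with a small negative sign in males alone and against WT replicate 3 alone. The defining markers of striatal projection neurons were present in every library. Genes of other brain parts were present too: the cortical excitatory list (20 tested) spanned -1.46 to 1.05 in WT and -1.51 to 1.08 in Q175 on the log2 scale, relative to the WT mean, with 1 member called, Emx2 (0.72). WT replicate 5 stood apart from the other WT libraries in low levels of projection neuron genes.

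Of 19667 genes tested, 1893 were called at an adjusted p under 0.05, a background of 9.63%, with 817 higher (4.15%) and 1076 lower (5.47%) in Q175. Most changes were small. The median absolute log2 fold change was 0.348 for the higher genes and 0.445 for the lower ones, and 572 higher genes (70.0%) and 603 lower genes (56.0%) moved by less than 0.5. Only 82 higher and 146 lower genes moved by more than 1. At the far end the balance turned: 17 higher genes but 1 lower gene passed 3 on the log2 scale. In 303 of the 817 higher genes (37.1%) and 445 of the 1076 lower genes (41.4%), the 6 Q175 libraries did not overlap the 6 WT libraries, against 803 (4.08%) of all genes tested.

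**Figure D1:**
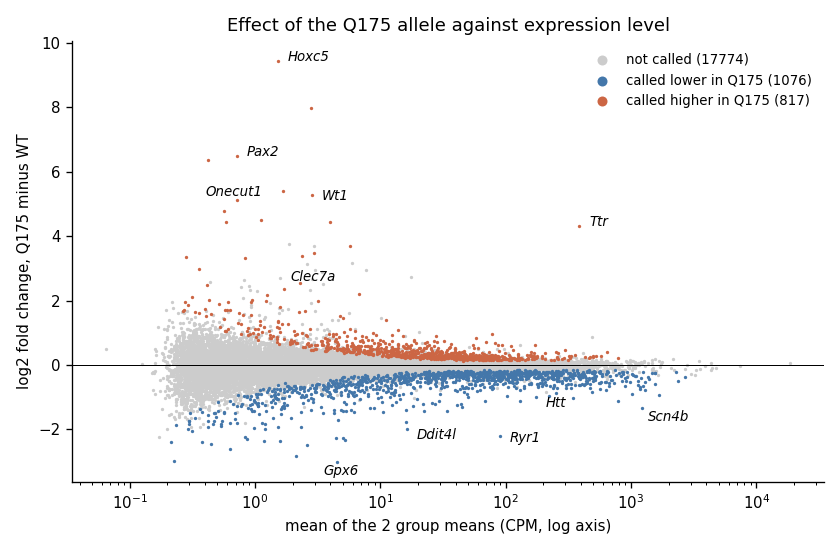
Log2 fold change (Q175 minus WT) against the mean of the group means in CPM, on a log axis, for the 19667 genes tested, 1 point per gene. The 1076 lower genes lie mostly above 10 CPM and within 1 of zero, and the 17 genes that rose by more than 3 include Hoxc5, Pax2, Onecut1, Wt1 and Ttr.

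When the genes were divided into 4 equal classes by mean level, 10.3% of the class above 46.9 CPM were called lower and 4.43% higher. In the class from 11.6 to 46.9 CPM the order was reversed, with 6.75% higher and 4.78% lower. Among the 15156 protein-coding genes tested, 777 were higher and 904 lower. The largest noncoding classes had few higher genes, and their lower shares did not exceed the 5.47% over all genes. Of 927 lincRNAs, 12 were higher (1.29%) and 48 lower (5.18%). Among 992 antisense genes 9 were higher (0.907%) and 40 lower (4.03%). In the provisional class TEC 1 gene was higher (0.0992%) and 37 lower (3.67%) of 1008. Some small classes went the other way, such as snoRNA with 2 higher and 0 lower of 64. Whether counting used strand is not given in the sources used here, so reads of antisense and overlapping genes cannot be told apart from those of their partners.

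**Figure D2:**
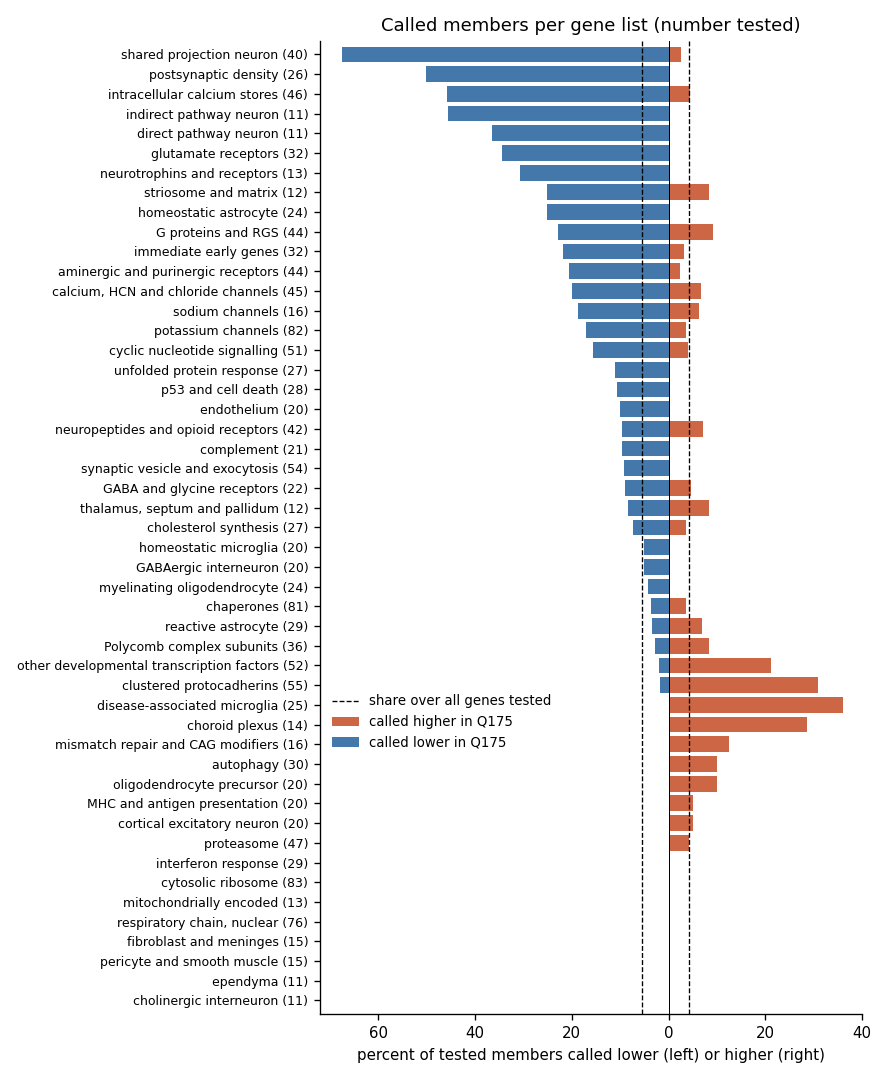
Percent of the tested members of each gene list with at least 10 tested members called lower (left, blue) or higher (right, orange) in Q175, with the share over all genes tested as broken lines (5.47% lower, 4.15% higher). Several neuronal lists extend to the left, up to 27 of 40 shared projection neuron genes. Protocadherins, developmental factors and disease-associated microglial genes extend to the right. Some developmental factors passed the filter only through carriers of the allele and had to differ, so their share is not comparable with the broken lines.

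Most genes shared by both kinds of projection neuron fell. Of 40 tested, 27 were lower, 1 was higher and 12 did not pass the test, with a median log2 fold change of -0.50 against 0.0073 over all genes tested. The higher member was Gpr149, an orphan receptor (0.60). Scn4b, a beta subunit of voltage-gated sodium channels, ranged from 1243 to 1872 CPM in WT (median 1833) and from 557 to 841 CPM in Q175 (median 706), for a log2 fold change of -1.33 ± 0.14 (SE; adjusted p 1.22e-06, edgeR). Every Q175 library lay below the lowest WT library, WT replicate 5. Rgs14, a regulator of G protein signalling, ranged from 48.7 to 76.2 CPM in WT (median 68.5) and from 30.8 to 35 CPM in Q175 (median 33.5), for a log2 fold change of -0.98 ± 0.09 (SE; adjusted p 2.08e-08, edgeR), also with no overlap. Arpp19, a cyclic AMP-regulated phosphoprotein, ranged from 534 to 749.5 CPM in WT (median 589) and from 285 to 401 CPM in Q175 (median 355), for a log2 fold change of -0.84 ± 0.08 (SE; adjusted p 5.33e-08, edgeR), and the groups were again separate. Other members that fell were Cnr1, the cannabinoid receptor (-1.03) and Ppp1r1b, which encodes the dopamine-regulated phosphatase inhibitor DARPP-32 (-0.74). Genes given here and in what follows with a log2 fold change alone were in part chosen after their values were seen: these were Gpr149, Cnr1, Ppp1r1b, Drd2, Drd1, Tac1, Pdyn, Kremen1, Pde4d, Prkar2a, Rgs9, Gng3, Gng4, Htr2c, Atp2b1, Atp2a2, Camk2a, Camk2b, Mcu, Camk2d, Dlg4, Grin2b, Egr2, Lhx2, Cbx6, Gprasp2 and Armcx6.

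The mean level of the shared list, taken per library as log2 CPM relative to the WT mean, lay between -0.383 and 0.194 in WT and between -0.706 and -0.341 in Q175. The overlap came from WT replicate 5 alone. Without it 28 members were lower, and without any other single library 20 to 27. Leaving that library out moved the list's median log2 fold change to -0.58, and leaving out any other library kept it between -0.55 and -0.47.

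Both output pathways contributed. Of 11 indirect pathway genes, 5 were lower and none higher, with a median of -0.28. Penk, the precursor of the enkephalins, ranged from 805 to 1263 CPM in WT (median 1129) and from 377 to 580.2 CPM in Q175 (median 528), for a log2 fold change of -1.12 ± 0.16 (SE; adjusted p 5.51e-05, edgeR), with no overlap. Adora2a, an adenosine receptor, ranged from 230.1 to 355 CPM in WT (median 350.5) and from 144 to 227 CPM in Q175 (median 175.6), for a log2 fold change of -0.88 ± 0.16 (SE; adjusted p 0.000884, edgeR). The orphan receptor Gpr6 ranged from 57.9 to 90.8 CPM in WT (median 79.8) and from 38.9 to 55 CPM in Q175 (median 44.5), for a log2 fold change of -0.78 ± 0.12 (SE; adjusted p 0.000105, edgeR). For both receptors all Q175 libraries lay below all WT libraries, WT replicate 5 included. Drd2 fell by 0.62.

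Of 11 direct pathway genes, 4 were lower and none higher, but the median was -0.05. Gpx6, a glutathione peroxidase, ranged from 5.18 to 12.4 CPM in WT (median 7.9) and from 0.233 to 1.73 CPM in Q175 (median 1.06), for a log2 fold change of -3.01 ± 0.31 (SE; adjusted p 6.06e-07, edgeR), the deepest fall among called genes with a WT mean of at least 1 CPM. Chrm4, the muscarinic M4 receptor, ranged from 45.5 to 70.5 CPM in WT (median 64.5) and from 34.8 to 41.6 CPM in Q175 (median 37.6), for a log2 fold change of -0.73 ± 0.12 (SE; adjusted p 0.000322, edgeR), and here too the groups did not overlap. Drd1 changed by -0.70. The peptide precursors of this pathway did not pass the test in the fit described: Tac1, the substance P precursor, had a log2 fold change of -0.03, whose sign changed when single libraries were left out, and Pdyn, the dynorphin precursor, of -0.33. With the mean level of cortical genes as a covariate Pdyn was called (-0.38, adjusted p 0.000745, edgeR). Among 12 genes of the striosome and matrix compartments, Kcnt1 (-0.33), Id4 (-0.59) and Kremen1 (-0.36) were lower and Mgat4c was higher (0.50).

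Interneuron genes showed few calls. None of 11 cholinergic interneuron genes was called by edgeR, DESeq2 or limma-voom (1 at an unadjusted edgeR p under 0.05), with a median of -0.14 and libraries that spread from -0.836 to 0.271 within Q175. The member of smallest p was Slc18a3, which was called without Q175 replicate 2 (-0.56, adjusted p 0.0478, edgeR) and with the mean level of cortical genes as a covariate (-0.50, adjusted p 0.0103, edgeR). With all libraries and no covariate Slc18a3, the vesicular acetylcholine transporter, ranged from 7.2 to 9.95 CPM in WT (median 9.08) and from 3.72 to 8.77 CPM in Q175 (median 6.71), for a log2 fold change of -0.44 ± 0.18 (SE; adjusted p 0.122, edgeR). Of 20 GABAergic interneuron genes, Pthlh alone was called (-0.50, edgeR adjusted p 0.0337). Its call was lost on leaving out WT replicates 2, 3 or 4 or Q175 replicates 1, 3 or 5 (edgeR adjusted p 0.0571 to 0.118).

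**Figure D3:**
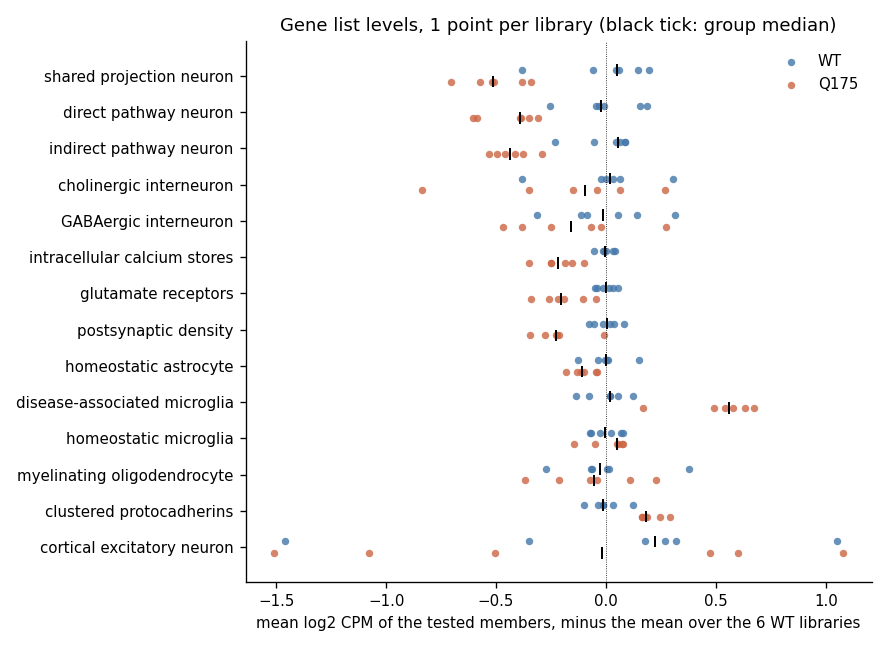
Mean log2 CPM of the tested members of 14 gene lists in each library, relative to the mean over the 6 WT libraries (x axis), with WT in blue, Q175 in orange and black ticks at the group medians. Shared projection neuron genes lay between -0.706 and -0.341 in Q175 against -0.383 to 0.194 in WT, whereas cortical genes spread over the same range in both groups.

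Intracellular signalling genes fell in part. Of 51 cyclic nucleotide genes, 8 were lower and 2 higher, with a median of -0.0017. Pde10a, the phosphodiesterase of projection neurons, ranged from 1565 to 2661 CPM in WT (median 2173) and from 1008 to 1299 CPM in Q175 (median 1151), for a log2 fold change of -0.93 ± 0.15 (SE; adjusted p 0.000254, edgeR). Adcy5, the main striatal adenylyl cyclase, ranged from 1149 to 1854 CPM in WT (median 1735) and from 808 to 1112 CPM in Q175 (median 948), for a log2 fold change of -0.78 ± 0.13 (SE; adjusted p 0.0005, edgeR). Neither gene's Q175 libraries reached the WT range. Ppp1r1a, a protein phosphatase inhibitor, ranged from 54 to 67 CPM in WT (median 58.9) and from 30.3 to 49 CPM in Q175 (median 36.1), for a log2 fold change of -0.68 ± 0.09 (SE; adjusted p 7.55e-06, edgeR), again with separate groups. Pde4d (0.39) and Prkar2a (0.28) were the higher members.

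Of 44 G protein and regulator genes, 10 were lower and 4 higher, with a median of -0.04. Rgs4 ranged from 697 to 955 CPM in WT (median 776) and from 366 to 518 CPM in Q175 (median 487), for a log2 fold change of -0.76 ± 0.10 (SE; adjusted p 2.31e-05, edgeR). Rgs19 moved the other way and ranged from 6.37 to 8.39 CPM in WT (median 7.41) and from 10.7 to 14.3 CPM in Q175 (median 12.5), for a log2 fold change of 0.77 ± 0.09 (SE; adjusted p 2.71e-06, edgeR). Both regulators were separate between the groups. Rgs9, the striatal isoform regulator of dopamine signalling, fell by 0.76, and the gamma subunits Gng3 (0.61) and Gng4 (0.89) were higher.

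Among 44 aminergic and purinergic receptors, 9 were lower and 1 higher, with a median of -0.09 (5 lower without WT replicate 1). Hrh3, the histamine H3 receptor, ranged from 77.2 to 110.0 CPM in WT (median 98.6) and from 57.4 to 73.9 CPM in Q175 (median 64.8), for a log2 fold change of -0.58 ± 0.07 (SE; adjusted p 3.76e-06, edgeR), with no overlap. The single higher receptor was Htr2c, the serotonin 2C receptor (0.97). Of 42 neuropeptide and opioid genes, 4 were lower and 3 higher, with 2 lower without Q175 replicate 2 or 3. The delta opioid receptor Oprd1 ranged from 42 to 55.4 CPM in WT (median 46.3) and from 24.2 to 35.5 CPM in Q175 (median 33.5), for a log2 fold change of -0.53 ± 0.08 (SE; adjusted p 7.68e-05, edgeR). Nts, the neurotensin precursor, ranged from 2.45 to 4.41 CPM in WT (median 2.79) and from 5.01 to 7.29 CPM in Q175 (median 5.79), for a log2 fold change of 0.96 ± 0.18 (SE; adjusted p 0.000525, edgeR). In these the fall of Oprd1 and the rise of Nts each separated the groups.

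Ion channel genes were lower more often than higher. Of 82 potassium channel genes, 14 were lower and 3 higher (median -0.14). Of 45 calcium, HCN and chloride channel genes, 9 were lower and 3 higher (median 0.0036), and of 16 sodium channel genes 3 were lower and 1 higher (median -0.08). Kcnip2, an accessory subunit of A-type channels, ranged from 242 to 321 CPM in WT (median 306) and from 166 to 218 CPM in Q175 (median 198), for a log2 fold change of -0.61 ± 0.09 (SE; adjusted p 2.49e-05, edgeR). Kcnh4, a voltage-gated channel of the ether-a-go-go family, ranged from 51.3 to 68.3 CPM in WT (median 64.5) and from 29.9 to 44.5 CPM in Q175 (median 32), for a log2 fold change of -0.89 ± 0.13 (SE; adjusted p 5.37e-05, edgeR). Both were below the WT range in every Q175 library. Cacnb2, a calcium channel beta subunit, fell by 0.50, and Ano3 by 0.60. Scn2b fell by 0.31, whereas Scn9a, a pore-forming sodium channel, was higher (0.75) with overlapping groups.

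Genes of intracellular calcium stores and calcium-dependent signalling fell in number: 21 of 46 were lower and 2 higher, with a median of -0.19 (-0.12 with the mean level of choroid plexus genes as a covariate). Ryr1, a calcium release channel of the endoplasmic reticulum, ranged from 118 to 163.3 CPM in WT (median 151.8) and from 22.8 to 39.1 CPM in Q175 (median 34.1), for a log2 fold change of -2.19 ± 0.14 (SE; adjusted p 9.91e-10, edgeR). Its highest Q175 library was far below its lowest WT library. Itpr1, the inositol trisphosphate receptor of neurons, ranged from 1293 to 1733 CPM in WT (median 1586) and from 994 to 1114 CPM in Q175 (median 1075), for a log2 fold change of -0.53 ± 0.07 (SE; adjusted p 4.05e-06, edgeR). Camkk2, a calmodulin-dependent kinase kinase, ranged from 345 to 402 CPM in WT (median 362) and from 186 to 269 CPM in Q175 (median 247), for a log2 fold change of -0.62 ± 0.08 (SE; adjusted p 3.08e-06, edgeR). Ppp3ca, the catalytic subunit of calcineurin, ranged from 2412 to 3187 CPM in WT (median 2658) and from 1718 to 2167 CPM in Q175 (median 1992), for a log2 fold change of -0.49 ± 0.08 (SE; adjusted p 0.000174, edgeR). None of these 4 genes had overlapping groups. The pumps Atp2b1 (-0.60) and Atp2a2 (-0.34) and the kinases Camk2a (-0.26) and Camk2b (-0.32) were lower, and Mcu, the mitochondrial calcium uniporter, was higher (0.24) with Camk2d (0.35).

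Many postsynaptic genes fell. Of 26 postsynaptic density genes, 13 were lower and none higher (median -0.19), a count of 8 without WT replicate 1, WT replicate 2 or Q175 replicate 3. Of 54 synaptic vesicle genes, 5 were lower and none higher (median -0.05), with 9.26% called against 9.63% over all genes. Ppp1r9b, which encodes the spine protein spinophilin, ranged from 1030 to 1384 CPM in WT (median 1167) and from 701 to 918 CPM in Q175 (median 806), for a log2 fold change of -0.53 ± 0.07 (SE; adjusted p 1.54e-05, edgeR). Shank3, a scaffold of excitatory synapses, ranged from 388 to 538 CPM in WT (median 484) and from 259 to 345 CPM in Q175 (median 311), for a log2 fold change of -0.61 ± 0.09 (SE; adjusted p 3.23e-05, edgeR). Both were separate between the groups. Dlg4, which encodes PSD-95, changed by -0.31. On the presynaptic side Unc13a, a vesicle priming factor, fell by 0.37, with overlapping groups.

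Glutamate receptor genes included 11 lower and no higher members of 32 (median -0.19), with 7 lower without WT replicate 1 or 3 and 6 without WT replicate 4. Neto2, an auxiliary subunit of kainate receptors, ranged from 197 to 323 CPM in WT (median 215) and from 102 to 137 CPM in Q175 (median 118), for a log2 fold change of -0.99 ± 0.11 (SE; adjusted p 1.69e-06, edgeR). Its highest Q175 library was below its lowest WT library, and the same held for Grik2, a kainate receptor subunit that fell by 0.59. The NMDA receptor subunit Grin2b was lower as well (-0.36). Of 22 GABA and glycine receptor genes, 2 were lower and 1 higher: Gabrd, the delta subunit of extrasynaptic GABA-A receptors, ranged from 114 to 142 CPM in WT (median 131) and from 62.8 to 96 CPM in Q175 (median 82.7), for a log2 fold change of -0.68 ± 0.08 (SE; adjusted p 3.47e-06, edgeR). Among 13 neurotrophin genes 4 were lower, among them Ntrk3, the receptor of neurotrophin-3, which ranged from 263 to 344 CPM in WT (median 298) and from 188 to 228 CPM in Q175 (median 213), for a log2 fold change of -0.49 ± 0.07 (SE; adjusted p 4.01e-05, edgeR).

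Immediate early genes, which respond to neuronal activity, had 7 lower and 1 higher of 32, with a median of -0.36. Without WT replicate 6 the lower count was 13, and DESeq2 gave 12. Their mean level varied widely between animals, from -0.655 to 0.459 in WT and from -0.626 to -0.135 in Q175, so the groups overlapped. Homer1, a synaptic scaffold, ranged from 271 to 461 CPM in WT (median 373) and from 190.5 to 272 CPM in Q175 (median 235), for a log2 fold change of -0.70 ± 0.10 (SE; adjusted p 5.47e-05, edgeR). Inhba, a subunit of activin, ranged from 29.6 to 38.1 CPM in WT (median 33.6) and from 18.3 to 25.4 CPM in Q175 (median 21.4), for a log2 fold change of -0.66 ± 0.11 (SE; adjusted p 0.000193, edgeR). Homer1 overlapped slightly and Inhba did not. The zinc finger factor Egr2 fell by 1.78, and Arid5b was the higher member (0.49).

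**Figure D4:**
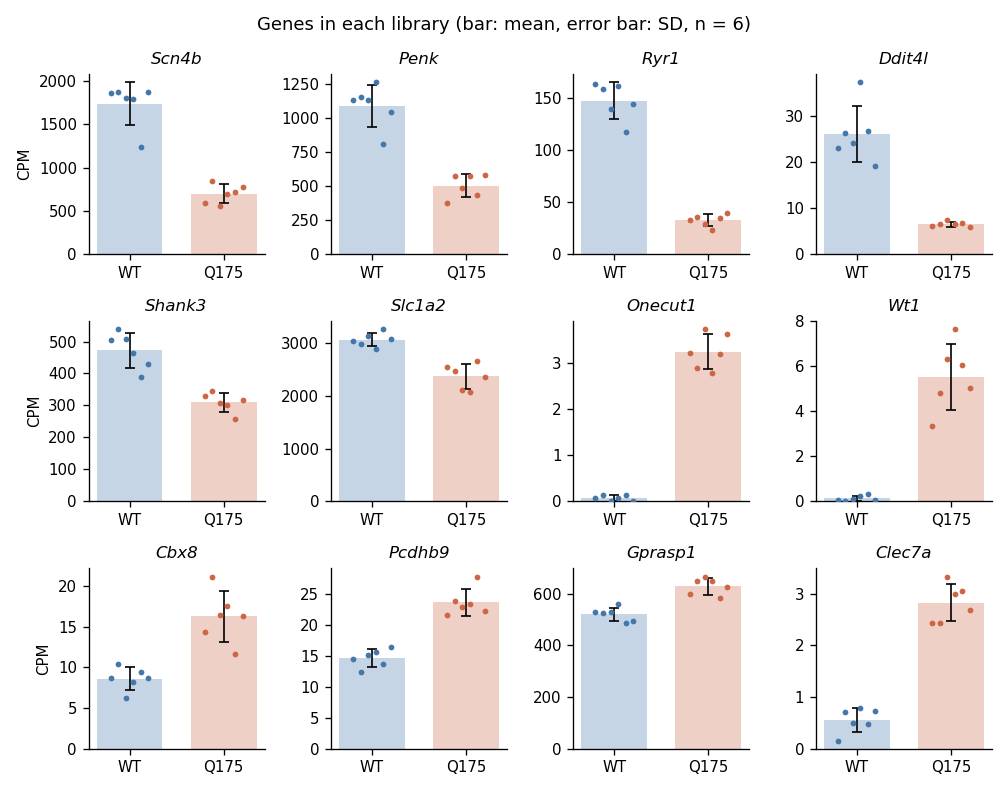
CPM of 12 genes in each of the 6 WT and 6 Q175 libraries (points), with group means (bars) and SD (error bars), on axes that start at 0. Ryr1 fell from 118 to 163.3 CPM in WT to 22.8 to 39.1 CPM in Q175, and Onecut1 rose from at most 0.144 CPM in WT to at least 2.79 CPM in Q175.

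Genes of protein quality control included a few called members. Of 27 unfolded protein response genes, 3 were lower and none higher (11.1% called, near the background of 9.63%). A negative log2 fold change was found in 18 of them. The mean level of the list was -0.219 to -0.0317 in Q175 and -0.0705 to 0.0671 in WT. Ddit4l, an inhibitor of the mTOR pathway, ranged from 19.1 to 37.3 CPM in WT (median 25.2) and from 5.8 to 7.46 CPM in Q175 (median 6.49), for a log2 fold change of -1.999 ± 0.12 (SE; adjusted p 9.85e-12, edgeR), the smallest p of any gene in this list. Atf6, a sensor of the endoplasmic reticulum, ranged from 137 to 160.2 CPM in WT (median 145) and from 91.3 to 118 CPM in Q175 (median 99), for a log2 fold change of -0.53 ± 0.06 (SE; adjusted p 4.32e-07, edgeR). Both fell in every Q175 library below the WT range. Trib3 was the third (-0.85, edgeR adjusted p 0.0288), and its call was lost on leaving out WT replicates 1, 2, 4 or 6 or Q175 replicates 1, 5 or 6 (edgeR adjusted p 0.0567 to 0.0763). Among 81 chaperones 3 were lower, with Hsp90b1 at -0.27, and 3 higher, with Hspa13 at 0.30, close to the background share.

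Of 47 proteasome genes, 2 were higher and none lower (4.26% called), while 41 had a positive log2 fold change with a median of 0.08. Psme1, a subunit of the PA28 activator, ranged from 12.6 to 14.8 CPM in WT (median 13.7) and from 18.5 to 22.9 CPM in Q175 (median 21.3), for a log2 fold change of 0.63 ± 0.08 (SE; adjusted p 3.07e-06, edgeR), and the groups were separate. Autophagy genes included 3 higher of 30, among them Lamp2 (0.28) and Vcp (0.18). Nothing was called by edgeR among 76 nuclear genes of the respiratory chain (median 0.02; 6 at an unadjusted p under 0.05), 13 mitochondrially encoded genes (median 0.04; 0) or 83 genes of the cytosolic ribosome (median -0.0043; 4). DESeq2 called 1 respiratory chain gene and limma-voom none, and neither called a gene of the other 2 lists. Of 16 genes of mismatch repair and other modifiers of CAG expansion, 2 were higher (12.5%), among them Rrm2b, a ribonucleotide reductase subunit (0.23). Cholesterol genes were called at 11.1% of 27, also near the background. Among them Cyp46a1, the cholesterol 24-hydroxylase of neurons, was lower (-0.32) with Acat2 (-0.29), and the regulator Srebf1 was higher (0.27). Of 28 genes of the p53 and cell death list (10.7% called, near the background), Plk2 (-0.40), Cdkn1a (-0.48) and Zmat3 (-0.17) were lower. The call of Zmat3 was lost on leaving out WT replicates 1, 2, 3, 4 or 5 or Q175 replicates 2, 3, 4 or 6 (edgeR adjusted p 0.064 to 0.106).

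Among called genes with a mean of at least 1 CPM, most of the largest rises were in developmental transcription factors near or at 0 in WT. Such factors are textbook targets of silencing by Polycomb complexes in mature cells. The noncoding genes Gm16551 and C130021I20Rik were also among the largest rises. They had 6 and 15 reads over all WT libraries and 187 and 366 over all Q175 libraries. Onecut1, a cut-homeodomain factor, ranged from 0 to 0.144 CPM in WT (median 0.0758) and from 2.79 to 3.73 CPM in Q175 (median 3.21) (12 reads over all WT libraries and 549 over all Q175 libraries, edgeR adjusted p 2.8e-10). Wt1, a zinc finger factor of kidney and gonad, ranged from 0.0355 to 0.324 CPM in WT (median 0.0946) and from 3.33 to 7.63 CPM in Q175 (median 5.52), for a log2 fold change of 5.28 ± 0.35 (SE; adjusted p 1.42e-10, edgeR). Shox2, a homeodomain factor, ranged from 0.0762 to 1.26 CPM in WT (median 0.164) and from 4.93 to 9.15 CPM in Q175 (median 7.94), for a log2 fold change of 4.43 ± 0.59 (SE; adjusted p 4.13e-05, edgeR). No Q175 library of these 3 genes reached down to the WT range. Shox2 also stands in the list of thalamic, septal and pallidal genes, in which it was the 1 higher and Synpo2 the 1 lower member of 12 (-0.49; lost on leaving out WT replicates 1, 2, 3 or 4 or Q175 replicates 1, 2, 3, 4, 5 or 6 (edgeR adjusted p 0.0588 to 0.109)), and the list median was 0.03 with 7 positive and 5 negative members. Lmx1b, Nkx6-1 and Pax2, transcription factors of the embryonic nervous system, had 6, 8 and 2 reads over all WT libraries and 240, 194 and 233 over all Q175 libraries. Per total count the ratio for Pax2 was 120 (95% counting interval 32.8 to 996). Of 139 listed factors outside the Hox clusters, 52 passed the filter on low counts, 11 were higher (6 when only the 12 libraries were fitted) and 1, Lhx2, was lower (-0.32). A gene that passed the filter only through its Q175 reads had to differ, so the counts describe these genes and do not support a shift of the family.

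The 250 bases upstream of a RefSeq start are shown for 2 of these genes and for Wnt8b, to let the CpG content of these windows be compared. Wnt8b was second in depth of fall among called genes with a WT mean of at least 1 CPM. CpG dinucleotides are in capitals, and the sequences are RefSeq reference sequence on GRCm38.p6, plus strand, outside any exon of GENCODE M21.
Onecut1, chr9:74861671-74861920: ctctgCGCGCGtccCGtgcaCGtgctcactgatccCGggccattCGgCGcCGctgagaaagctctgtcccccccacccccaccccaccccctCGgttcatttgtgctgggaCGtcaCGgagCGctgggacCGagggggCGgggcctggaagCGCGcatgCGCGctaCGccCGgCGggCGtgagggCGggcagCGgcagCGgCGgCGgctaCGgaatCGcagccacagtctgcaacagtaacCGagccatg
Pax2, chr19:44746351-44746600: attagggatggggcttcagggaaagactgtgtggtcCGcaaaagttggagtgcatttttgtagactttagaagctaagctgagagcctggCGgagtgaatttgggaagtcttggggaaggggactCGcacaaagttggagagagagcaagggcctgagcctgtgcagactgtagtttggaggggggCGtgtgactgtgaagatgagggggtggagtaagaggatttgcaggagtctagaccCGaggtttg
Wnt8b, chr19:44493222-44493471: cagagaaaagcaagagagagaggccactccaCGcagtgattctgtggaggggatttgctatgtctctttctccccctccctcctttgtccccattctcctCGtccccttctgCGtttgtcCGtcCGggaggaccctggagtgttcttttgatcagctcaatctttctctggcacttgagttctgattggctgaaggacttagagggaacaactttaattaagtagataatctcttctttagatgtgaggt
The windows hold 31, 5 and 5 CpG dinucleotides, where the median over the 27025 genes with an entry was 6 (quartiles 2 and 16). The Onecut1 and Wnt8b windows end next to the gene starts of the deposited table (74861921 and 44493472). The Pax2 window does not reach the start given there (44756045), so its count does not describe that start. Where transcription began was not measured. Windows of C130021I20Rik, a large rise (28 CpG), and Ffar3, a deep fall (3 CpG), were also taken and are not shown. A count over all called genes was not made, since 77.6% of the protein-coding genes tested had an entry, under the 80% taken as the least for such a comparison.

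Of 40 Hox gene entries, 5 passed the filter and 3 were called, all of cluster C on chromosome 15. The 3 called genes passed the filter only through carriers of the allele and so had to differ. Their count and adjusted p describe these genes and do not support a shift of the family. Cluster C held 6 reads over all WT libraries and 1662 over all Q175 libraries. The other clusters held 23 and 121 reads (A), 11 and 100 (B) and 25 and 134 (D). Hoxc4 had 3 and 943 reads, a ratio of 324 per total count (95% counting interval 110 to 1570), with no Q175 library below 3.56 CPM (edgeR adjusted p 8.15e-10). Hoxc5 had 0 and 516 reads, at least 177.1-fold more per total count when the WT group is set at 3 reads (edgeR adjusted p 7.82e-09). The annotated span of Hoxc5 contains Hoxc6, which had 1 and 143 reads (ratio 147, 26.0 to 5850), so these genes can share reads.

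Genes that encode Polycomb subunits were called about as often as all genes (11.1% against 9.63%). Of 36 tested, 3 were higher and 1 was lower, with a median of 0.04. Cbx8, a chromodomain subunit of Polycomb repressive complex 1, ranged from 6.18 to 10.4 CPM in WT (median 8.66) and from 11.7 to 21.2 CPM in Q175 (median 16.4), for a log2 fold change of 0.93 ± 0.14 (SE; adjusted p 5.96e-05, edgeR). All Q175 libraries were above all WT libraries. Bmi1 was also higher (0.23), a call lost on leaving out WT replicates 1, 2 or 6 or Q175 replicate 5 (edgeR adjusted p 0.0555 to 0.0727). The lower member was Cbx6 (-0.19), lost on leaving out WT replicates 1, 2, 3 or 6 or Q175 replicates 1, 3, 5 or 6 (edgeR adjusted p 0.0541 to 0.169).

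Clustered protocadherins, cell adhesion proteins that label single neurons, had 17 higher and 1 lower of 55, with a median of 0.17. Most higher members were of the beta cluster. Pcdhb9 ranged from 12.4 to 16.4 CPM in WT (median 14.8) and from 21.6 to 27.8 CPM in Q175 (median 23.1), for a log2 fold change of 0.69 ± 0.07 (SE; adjusted p 7.95e-08, edgeR). Pcdhb22 ranged from 11.9 to 15.4 CPM in WT (median 13.1) and from 18.8 to 22.5 CPM in Q175 (median 19.2), for a log2 fold change of 0.60 ± 0.08 (SE; adjusted p 1.01e-05, edgeR). Neither had overlapping groups. The mean level of the list lay between -0.0975 and 0.124 in WT and between 0.162 and 0.291 in Q175. Members are similar in sequence and some share exons, so the split of reads among them is uncertain. These genes made up 17 of the 42 higher genes on chromosome 18, and without them 5.63% of the tested genes of that chromosome were higher.

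Genes on chromosome X were called higher more often than those of any other chromosome, 65 of 630 (10.3%) with 15 lower (2.38%), against 4.15% and 5.47% over all genes. The sexes were balanced between the groups and sex was a term in the fit. Gprasp1, which encodes a sorting protein for G protein-coupled receptors, ranged from 486 to 559 CPM in WT (median 527) and from 584 to 668 CPM in Q175 (median 638), for a log2 fold change of 0.27 ± 0.06 (SE; adjusted p 0.00183, edgeR), with no overlap. It belongs to a block of related Armcx and Gprasp genes in which 6 of 9 tested were higher, among them Gprasp2 (0.58) and Armcx6 (0.65), a set chosen after its values were seen. Outside that block 9.5% of X genes were higher.

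By transcription factor family, as annotated in the deposited table, 9 homeobox factors were higher and 1 was lower of 77. These include Hox and other factors near 0 in WT, some of which passed the filter only through carriers of the allele, so the count does not support a shift of the family. Among bZIP factors 7 were lower and 3 higher of 43, and among ZBTB factors 7 were lower and 1 higher of 45. Apart from Ttr, the largest gains in CPM were in Chd3, a chromatin remodeller (0.40), the noncoding RNA Rian (0.23), Gprasp1, and the glycolytic enzyme Gpi1 (0.29). Wnt8b, a secreted signalling protein, ranged from 2.19 to 6.97 CPM in WT (median 3.27) and from 0.0697 to 1.31 CPM in Q175 (median 0.358), for a log2 fold change of -2.83 ± 0.46 (SE; adjusted p 0.000254, edgeR). Further deep falls outside the lists included those of Vwa7, Mafa and Phex. Mafa, a bZIP factor, ranged from 8.46 to 9.14 CPM in WT (median 8.71) and from 0.998 to 2.21 CPM in Q175 (median 1.83), for a log2 fold change of -2.33 ± 0.16 (SE; adjusted p 2.34e-10, edgeR). Phex, a membrane endopeptidase, ranged from 6.04 to 11.2 CPM in WT (median 8.08) and from 1.3 to 2.14 CPM in Q175 (median 1.75), for a log2 fold change of -2.27 ± 0.17 (SE; adjusted p 5.92e-10, edgeR). Vwa7 ranged from 2.66 to 5.62 CPM in WT (median 4.79) and from 0.466 to 1.4 CPM in Q175 (median 0.742), for a log2 fold change of -2.47 ± 0.24 (SE; adjusted p 5.33e-08, edgeR). The WT libraries of Mafa spanned a narrow range, and none of these 3 genes had overlapping groups.

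A part of the homeostatic astrocyte genes fell. Of 24 homeostatic astrocyte genes, 6 were lower and none higher, with a median of -0.10. Slc1a2, the main glutamate transporter of astrocytes, ranged from 2890 to 3257 CPM in WT (median 3061) and from 2068 to 2666 CPM in Q175 (median 2421), for a log2 fold change of -0.37 ± 0.06 (SE; adjusted p 0.000162, edgeR). Glul, glutamine synthetase, ranged from 1160 to 1554 CPM in WT (median 1370) and from 962 to 1108 CPM in Q175 (median 1034), for a log2 fold change of -0.41 ± 0.07 (SE; adjusted p 0.000177, edgeR). Each was below the WT range in all 6 Q175 libraries. Of 29 reactive astrocyte genes, 2 were higher and 1 was lower (Fbln5, -0.92), with 10.3% called against 9.63% over all genes. Serpina3n, a protease inhibitor, ranged from 3.39 to 8.04 CPM in WT (median 6.21) and from 9.48 to 14 CPM in Q175 (median 11.7), for a log2 fold change of 1.01 ± 0.19 (SE; adjusted p 0.00104, edgeR), with no overlap. Gfap, the glial intermediate filament, was higher by 0.63 (edgeR adjusted p 0.0425), a call lost on leaving out WT replicates 1, 2, 4 or 5 or Q175 replicates 2, 3, 5 or 6 (edgeR adjusted p 0.0534 to 0.0878).

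A part of the genes listed for the disease-associated state of microglia rose. Of 25 disease-associated genes, 9 were higher and none lower, 16 did not pass the test and 4 had a negative log2 fold change, with a median of 0.25. Of 20 homeostatic genes, 1 was lower (Mertk, -0.22, edgeR adjusted p 0.0204) and none higher, with a median of 0.0074. Clec7a, the beta-glucan receptor, ranged from 0.152 to 0.791 CPM in WT (median 0.6) and from 2.44 to 3.33 CPM in Q175 (median 2.85), for a log2 fold change of 2.36 ± 0.47 (SE; adjusted p 0.00142, edgeR). Timp2, an inhibitor of metalloproteinases, ranged from 223 to 279 CPM in WT (median 251) and from 325 to 378 CPM in Q175 (median 344), for a log2 fold change of 0.47 ± 0.06 (SE; adjusted p 3.41e-06, edgeR). Lyz2, lysozyme, ranged from 4.71 to 8.02 CPM in WT (median 6.48) and from 6.08 to 13.9 CPM in Q175 (median 13.4), for a log2 fold change of 0.93 ± 0.17 (SE; adjusted p 0.00039, edgeR). Clec7a and Timp2 separated the groups, and Lyz2 overlapped only through Q175 replicate 1. That library also had the lowest mean level of the list in Q175, 0.169 against 0.491 to 0.672 in the other 5. The call of Mertk was lost on leaving out WT replicates 2 or 3 (edgeR adjusted p 0.0565 to 0.08). In Q175_TyrobpKO against TyrobpKO, Timp2 was still higher (0.40, edgeR adjusted p 5.95e-05), while Clec7a stood at 0.14 and Lyz2 at 0.05. Timp2 had a WT median of 251 CPM against 7.74 CPM for Tyrobp, and its reads cannot be assigned to a cell type in bulk tissue.

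The interferon and antigen presentation lists were called at shares below the background of 9.63%, and the complement list at a share level with it. None of 29 interferon response genes was called by edgeR, DESeq2 or limma-voom, with 3 at an unadjusted edgeR p under 0.05. Of these 29 genes 25 were positive, with a median of 0.16. Erap1 was the 1 higher gene of 20 for antigen presentation (0.52, 5% called). In that list 17 of 20 were positive with a median of 0.29, and 3 had groups without overlap, against 4.08% of all genes tested. Of 21 complement genes (9.52% called) C4a (-0.72) and Cd46 (-0.33) were lower. Of 24 myelin genes, 1 was lower, Car2 (-0.37, edgeR adjusted p 0.0198; lost on leaving out WT replicates 3 or 6 or Q175 replicate 2 (edgeR adjusted p 0.0526 to 0.0538)). Of 20 oligodendrocyte precursor genes, Enpp6 (0.59) and Lhfpl3 (0.43) were higher, the latter lost on leaving out WT replicates 1, 2 or 6 or Q175 replicates 3 or 6 (edgeR adjusted p 0.0576 to 0.0791). Enpp6, a phosphodiesterase of newly forming oligodendrocytes, ranged from 18.6 to 25.9 CPM in WT (median 20.5) and from 27.5 to 38.2 CPM in Q175 (median 31.3), and did not overlap. Of 20 endothelial genes 2 were lower, Ly6c1 (-0.36) and Tie1 (-0.38, edgeR adjusted p 0.0265; lost on leaving out WT replicates 1, 4 or 5 or Q175 replicates 1, 5 or 6 (edgeR adjusted p 0.05 to 0.0755)). Nothing was called by edgeR, DESeq2 or limma-voom among 15 pericyte and smooth muscle genes, 15 fibroblast genes or 11 ependymal genes, with 4, 2 and 0 at an unadjusted edgeR p under 0.05.

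Choroid plexus genes were above the WT range in 5 of 6 Q175 libraries by their mean level, to very unequal degrees. Of 14 tested, all had a positive log2 fold change, 4 were called higher and the median was 2.95, but no member or 1 member was called without WT replicate 1, 2, 3, 4, 5 or 6 or Q175 replicate 3 or 5, 7 without Q175 replicate 1 and 10 without Q175 replicate 4. Their mean level ran from -0.647 (replicate 4) to 5.35 (replicate 3) in Q175 and from -0.241 to 0.205 in WT. Ttr, transthyretin, ranged from 18.3 to 55.1 CPM in WT (median 28.6) and from 22.3 to 3793 CPM in Q175 (median 72.2), with its highest value in Q175 replicate 3 and a log2 fold change of 4.30 ± 1.30 (SE; adjusted p 0.0408, edgeR). Without that library Ttr stood at 1.88 (adjusted p 0.25, edgeR). Its call was also lost on leaving out WT replicates 1, 2, 3, 4 or 5 or Q175 replicate 5 (edgeR adjusted p 0.0619 to 0.0936). Aqp1, a water channel of choroid plexus, showed the same pattern, with a log2 fold change of 3.38 ± 0.99 (SE; adjusted p 0.0336, edgeR) and 1.69 without Q175 replicate 3 (edgeR adjusted p 0.202); its call was lost as well on leaving out WT replicates 1, 2, 4, 5 or 6 or Q175 replicate 5 (edgeR adjusted p 0.0518 to 0.0835). Of 4 blood genes tested S100a9 was higher (2.49, edgeR adjusted p 0.0284; lost on leaving out WT replicates 1, 3 or 4 or Q175 replicates 2 or 6 (edgeR adjusted p 0.0584 to 0.139)). The mean level of the choroid plexus list was then added to the fit as a covariate, and 1367 genes were called, 1263 of them among the 1893. With the cortical list in its place 2670 genes were called, 1888 of them among the 1893. Both fits were added after the data were seen. Among genes named here, the choroid plexus fit ended the edgeR calls of Lhx2, Aqp1, Kremen1, Srebf1, Gfap, Camk2a, Bmi1, Zmat3, Drd2, Tie1, Gpr149, Pthlh, Synpo2, Camk2d, Ttr, Scn9a, Cbx6 and Lhfpl3 (adjusted p 0.0502 to 0.532). Ttr moved to 0.41 and Aqp1 to 0.77 in it, but both belong to the list that gave the covariate, so a smaller value was built in. Drd2 stood at -0.54, Gfap at 0.56 and Zmat3 at -0.16, close to their values without the covariate.

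The effect of the allele was compared between the sexes, with 3 animals per sex and genotype. No gene was called by edgeR, and 747 of 19667 passed an unadjusted p of 0.05. No gene was called by DESeq2 or limma-voom either, with 784 and 746 at an unadjusted p under 0.05. The allele effect fitted in the 12 males of all genotypes had 759 calls, and that in the 12 females had 187.

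WT replicate 3, the WT animal whose label shares the prefix of the Q175 animals, was compared with the other WT libraries over the called genes. These genes were called with that library counted as WT, which favours genes in which it lies with WT. The counts that follow were in part fixed by this choice. Without WT replicate 3, 1510 of the 1893 genes were still called. In 824 called genes the 6 Q175 libraries did not overlap the other 5 WT libraries. For 539 of them WT replicate 3 was within the range of the other 5 WT, for 76 within that of Q175, and for 209 in neither. Over all 1893 called genes it was within the Q175 range and outside the other WT for 159, and the same count was 66 to 383 for the other WT libraries taken in turn. Examples were Smurf1, a ubiquitin ligase, at 72.3 CPM in that library, and Cdc25b, a cell cycle phosphatase, at 13.1 CPM. Scn4b at 1808 CPM, Penk at 1131 CPM and Onecut1 at 0 CPM were within the WT range. Set against WT replicate 3 alone, Q175 gave 293 calls, 269 of them among the 1893, in a fit where the spread of that lone library is assumed to be that of the other groups. Of 6 listed genes known to differ between C57BL/6 substrains 4 were tested, and none was called by edgeR, DESeq2 or limma-voom (1 at an unadjusted edgeR p under 0.05), and Ide, an insulin-degrading protease, stood at 0.50 ± 0.20 on the log2 scale (adjusted p 0.12, edgeR).

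The shares of genes called near Htt were set beside the background of 9.63%, and the difference was not tested. Within 5 Mb on chromosome 5, 8 of 157 tested genes were higher and 14 lower (14.01%), and within 10 Mb 9 of 219 were higher and 16 lower (11.4%). Zfyve28 (-0.48), Grk4, a G protein-coupled receptor kinase (0.80), and Gm1043 (-0.62) had the smallest p there after Htt itself.

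The same allele was present in 6 Q175_TyrobpKO libraries, which were compared with 6 TyrobpKO libraries in the same fit and share no library with the comparison above. Of 43 genes that changed by more than 2 with Tyrobp present, 41 had the same sign without it and 30 were called (69.8%). Of 385 called genes that changed by less than 0.25, 367 had the same sign and 108 were called (28.1%). Over all genes the background of calls without Tyrobp was 5.86%. Median changes were smaller there: genes between 0.5 and 1 (median 0.663) had a median of 0.471 in the same direction. The genes in these bins were chosen by the comparison with Tyrobp present. No gene passed the test of the difference between the 2 effects (edgeR, 707 at an unadjusted p under 0.05). Its smallest adjusted p, 0.123, was that of Ryr1, which changed by -2.19 ± 0.14 with Tyrobp and -1.03 ± 0.14 without it. Ryr1 averaged 147.6 ± 17.9 CPM in WT, 36.8 ± 6.81 CPM in TyrobpKO and 18 ± 3.29 CPM in Q175_TyrobpKO (SD, n = 6 each), so the effects did not start from the same level. It lies on chromosome 7 (29003344 to 29125179), the chromosome of Tyrobp (30413760 to 30417585), in the coordinates of the deposited table, and any part of this in the difference was not tested. Clec7a stood at 2.36 ± 0.47 with Tyrobp and 0.14 ± 0.59 without it (adjusted p of the difference 0.9993, edgeR). The disease-associated microglial list had a median of -0.02 without Tyrobp, with 1 gene higher and 1 lower of 25.

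**Figure D5:**
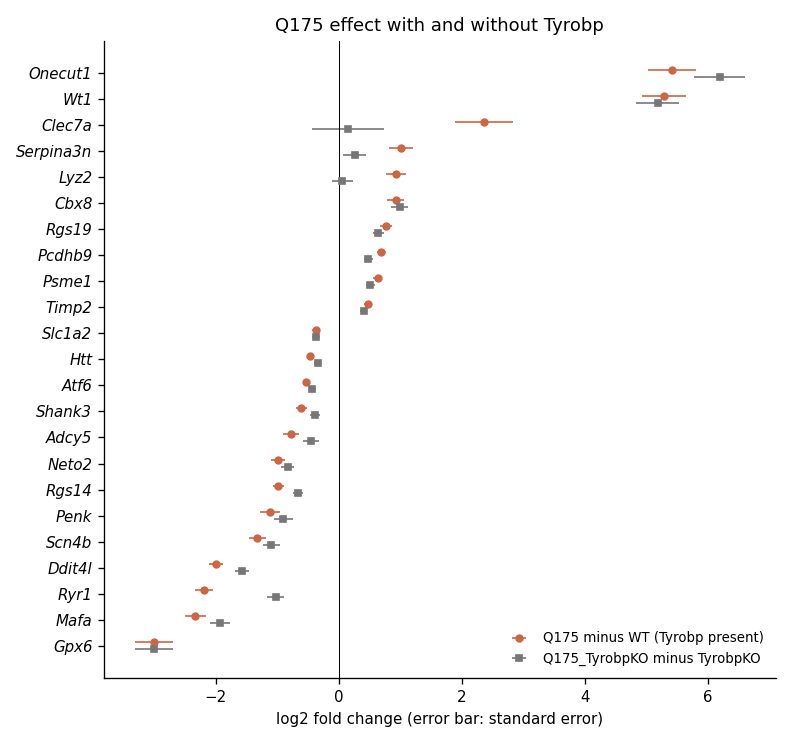
Log2 fold changes with standard errors for 23 genes in Q175 against WT (orange circles) and in Q175_TyrobpKO against TyrobpKO (grey squares), 6 libraries per group. Wt1, Gpx6, Cbx8 and Slc1a2 lie close together in both, and Clec7a, Lyz2, Serpina3n and Ryr1 lie nearer 0 without Tyrobp, although none passed the test of the difference.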

How the data were processed

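RNA of mouse striatum was sequenced (Novogene, NovaSeq, per the labels' protocols), and the authors deposited whole-number read counts per gene in 1 table of 54532 genes. The submitters' processing notes name STAR, featureCounts and DESeq2 without versions, and the build GRCh38, which is human, whereas the table's coordinates are those of mouse. Whether counting used strand is not given in the sources used here.

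Counts were analysed with R 4.3.3 and edgeR 4.0.16 (TMM, filterByExpr, robust quasi-likelihood test) over all 24 libraries, with a mean per genotype and sex as a term, and Benjamini-Hochberg adjustment over 19667 genes at 0.05. The biological coefficient of variation was 16.2%. Each SE of a log2 fold change was derived from the test, as its absolute value divided by the square root of the quasi-likelihood F statistic. CPM values are counts scaled to the TMM-adjusted library total, and 3 counts in the WT or Q175 group correspond to 0.0176 or 0.0181 CPM. Intervals and floors cover counting error only. No library pair was identical, and p-values measure the spread between these animals. The fit was tested on simulated data.

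Alternatives were RLE size factors, DESeq2 1.42.0, limma-voom (limma 3.58.1), 2 filters, other samples in the fit, no sex term, and each library left out. Named genes were Htt, Tyrobp, the 10 largest rises and falls among called genes with a mean of at least 1 CPM, the 5 largest differences in CPM each way, the 3 members of smallest p per list, the 3 called genes of smallest p within 5 Mb of Htt, up to 5 for WT replicate 3, and those named in the text as chosen after their values were seen. Groups and gene lists were chosen with earlier results of these data known. Results for a few genes are not reported here.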

Additional observations from a re-analysis of the deposited data

Results flagged for a closer look

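Among 290 sets of 6 libraries examined for the named genes, the lists and the library measures, 34 had 1 library further from its neighbour than Dixon's 95% critical value allows. Chance flags about 1 in 20 such sets. WT replicate 2 held the lowest value of its group for Cd46 (10.1 CPM). WT replicate 3 held the highest value of its group for Nts (4.41 CPM). WT replicate 4 held the highest value of its group for Rian (842 CPM). WT replicate 5 held the lowest value of its group for Adora2a (230.0 CPM), Cyp46a1 (202 CPM), Kcnh4 (51.3 CPM), Chrm4 (45.5 CPM), Scn4b (1240 CPM), Kcnt1 (262 CPM) and Ppp1r1b (983 CPM). WT replicate 5 held the highest value of its group for Hoxc6 (0.036 CPM) and Camk2d (45.2 CPM). WT replicate 6 held the lowest value of its group for Htt (209 CPM) and Atp2a2 (1100 CPM). WT replicate 6 held the highest value of its group for Pax2 (0.0628 CPM), Shox2 (1.26 CPM), Ttr (55.2 CPM) and Hoxc4 (0.0942 CPM). Q175 replicate 1 held the lowest value of its group for Lyz2 (6.08 CPM). Q175 replicate 1 held the highest value of its group for Lhx2 (27.2 CPM), Gng4 (64.1 CPM) and Unc13a (418 CPM). Q175 replicate 2 held the highest value of its group for Kcnh4 (44.4 CPM). Q175 replicate 3 held the lowest value of its group for Oprd1 (24.2 CPM). Q175 replicate 3 held the highest value of its group for Aqp1 (20.5 CPM), C4a (3.56 CPM), Htr2c (151 CPM) and Ttr (3790 CPM). Q175 replicate 4 held the highest value of its group for Hoxc6 (2.02 CPM). Q175 replicate 5 held the highest value of its group for Bmi1 (87.3 CPM) and Pcdhb9 (27.8 CPM). WT replicate 6 had the largest total count of its group, 32.4 M. Q175 replicate 1 had the lowest mean level of the disease-associated microglial list in Q175, 0.169 on the log2 scale. In Q175 replicate 5 the 10 largest genes took 6.47% of counts, the largest share of its group.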

How the results depend on the processing

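The count of 1893 called genes ranged from 1416 (without WT replicate 1) to 1986 (without WT replicate 5) when single libraries were left out, the higher calls from 590.0 to 840.0 and the lower calls from 826 to 1165. Fits on fewer animals gave fewer calls: males alone 759 (211 higher, 548 lower), females alone 187 (67 higher, 120 lower) and WT replicate 3 alone as WT 293 (55 higher, 238 lower). Without the filter on low counts 521 genes were higher, and with the 12 libraries alone 458. All 1893 called genes kept their sign with RLE size factors, DESeq2, limma-voom and no sex term, and these called 1887, 2323, 1923 and 1945 genes.

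Leaving out single libraries moved the difference in mitochondrial share between -0.0183 and 0.306 percentage points and that of the 10 largest genes between -3.33e-05 and 0.28. The protocadherin median lay between 0.136 and 0.234. The calcium store median was -0.262 in males alone and -0.118 with the choroid plexus covariate. Tyrobp was at -0.0998 in males alone and -0.0337 against WT replicate 3 alone. Tac1 was at 0.0497 in females alone, 0.0162 without WT replicate 3, 0.0331 without WT replicate 4 and 0.0323 without Q175 replicate 1 (-0.106 to 0.0331 over single libraries). The causes were not tested. Among named genes, testing without the filter on low counts ended the calls of 9 (Aqp1, Gfap, Car2, Zmat3, Vcp, Synpo2, S100a9, Ttr and Lhfpl3), limma-voom those of 3 (Aqp1, S100a9 and Ttr) and the 12 libraries alone those of 13 (Aqp1, Mertk, Gng4, Camk2a, Bmi1, Zmat3, Vcp, Prkar2a, Trib3, Egr2, Pthlh, Ttr and Cbx6). No paired analysis was possible because the labels give no replicate numbers. Genes with few reads in WT limit the precision of the largest rises.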
